A study of Mus musculus with 31 samples.

Results

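Ribosome biogenesis and RNA polymerase I genes are the 43 genes described here. They were taken as a named list of symbols, drawn up with earlier results of these data known, and were matched to Ensembl identifiers through GENCODE M21. All 43 were found among the 34865 genes of the bulk table and the 55487 genes of the Smart-seq2 table. The list holds 8 genes of RNA polymerase I transcription, 4 nucleolar scaffold proteins and chaperones, 4 box C/D proteins, 4 box H/ACA proteins, 14 small subunit assembly factors and 9 large subunit assembly factors.

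RNA levels were measured in mouse embryonic brain in 4 groups, in a study of stem cell competition. Its title names Axin2, which is induced by Wnt signalling and restrains it. Bulk RNA-seq covered 3 libraries of dorsal diencephalon and 3 of ventral diencephalon, both from wild-type embryos at E10.5 (E, embryonic day). Smart-seq2, a full-length method for single cells, covered 13 Axin2-null and 12 Axin2 wild-type libraries from E11.5 medial cortex. Both of these genotypes carry Emx1-CreERT2, an inducible recombinase expressed from Emx1 in the dorsal telencephalon, and the MADM-11 cassettes, and came from breeding with the Axin2LacZ allele. The sample labels write them as Emx1-cre(+/-)::MDMD::Axin2(-/-) and Emx1-cre(+/-)::MDMD::Axin2(+/+). MADM recombines the 2 copies of a chromosome so that sister cells receive different colours and alleles; here that is chromosome 11, which holds Axin2. The libraries of a genotype cannot be tied to embryos, so each genotype counts as 1 sample with no test between them, and the labels do not say whether bulk libraries are separate embryos, so that bulk p-values measure only how these libraries spread, which may be technical.

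Ribosomes are built in the nucleolus. RNA polymerase I copies the ribosomal DNA into 1 long precursor, small nucleolar ribonucleoproteins (snoRNPs) guide its methylation and pseudouridylation, and large assemblies of processing factors cut it and fold it into the small and the large subunit. The genes of this machinery are highly active in dividing cells, are known targets of Myc proteins, and include genes whose loss in humans or mice gives craniofacial and neural defects.

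Bulk libraries held 17604166 to 20838002 counts. Library 3 stood apart within each region, with correlations of log2 CPM (counts per 1000000) of 0.9593 to 0.9623 with the other dorsal libraries and 0.9141 to 0.9254 with the other ventral ones, against 0.9948 and 0.9871 between libraries 1 and 2. Region markers followed the labels, with all 6 telencephalon and all 8 thalamus genes higher in dorsal libraries and all 8 hypothalamus genes higher in ventral libraries. In Smart-seq2 the 6 telencephalon genes summed to 255 to 562 TPM in null libraries and 308 to 599.6 TPM in wild-type libraries, and the 8 hypothalamus genes to at most 7.96 and 5.44 TPM. Axin2, the gene the Smart-seq2 design targets, ran from 0 to 22.4 TPM (transcripts per 1000000) in null libraries, with a median of 3.28, against 4.32 to 35.9 TPM with a median of 13.2 in wild-type libraries. It was thus detected at 1 TPM or more in 11 of 13 null libraries, and what part of the transcript the null allele still makes was not tested.

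The windows before the start sites of 3 members are shown because these are the genes that differed most and had a start site placed alike in RefSeq and GENCODE: Gar1 and Utp20, higher in dorsal diencephalon, and Utp18, the member furthest below wild type in Axin2-null libraries. Each is the 250 bases before the RefSeq start on GRCm38.p6, read 5′ to 3′ on the minus strand, at chr3:129831397-129831646 for Gar1, chr10:88826815-88827064 for Utp20 and chr11:93885767-93886016 for Utp18. Capitals mark matches to CCGGAA, the core of ETS factor sites, and to CACGTG, the E-box that Myc and Max bind; in Gar1 the 2 strands match CCGGAA in overlapping places.
Gar1: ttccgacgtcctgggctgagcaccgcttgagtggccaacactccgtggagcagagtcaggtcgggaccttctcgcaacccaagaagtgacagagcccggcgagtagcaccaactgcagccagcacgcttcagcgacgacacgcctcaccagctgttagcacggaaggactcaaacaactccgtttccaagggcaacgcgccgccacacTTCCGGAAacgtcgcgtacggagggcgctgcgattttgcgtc
Utp20: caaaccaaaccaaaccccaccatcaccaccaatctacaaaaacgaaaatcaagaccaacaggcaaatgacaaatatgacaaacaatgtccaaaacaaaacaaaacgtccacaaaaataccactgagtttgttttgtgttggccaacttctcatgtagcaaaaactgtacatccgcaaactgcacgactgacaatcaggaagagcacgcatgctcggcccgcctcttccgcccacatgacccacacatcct
Utp18: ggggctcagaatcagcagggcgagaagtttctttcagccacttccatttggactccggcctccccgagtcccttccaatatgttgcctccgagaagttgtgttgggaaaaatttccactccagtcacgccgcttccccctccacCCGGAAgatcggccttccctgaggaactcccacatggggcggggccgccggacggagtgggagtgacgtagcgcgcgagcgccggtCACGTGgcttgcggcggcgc

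Windows were present for 38 of the 43 members. CCGGAA was found on either strand in 14 of the 38 (36.8%), against 21.1% of 10945 windows of genes tested in bulk and 12.3% of all 27025 windows. CACGTG was found in 3 of the 38 (7.89%), namely Nop2, Rrn3 and Utp18, against 8.1% of the tested genes and 6.04% of all windows. TATAAA, the TATA box, was in 2 of the 38 (5.26%), Dkc1 and Pes1, against 7.15% and 13%. AAGATGGCG (a YY1 motif) was in none of the 38, against 1.06% and 0.599%, and GCGCATGCG (an NRF1 motif) in none, against 2.95% and 1.5%. The median G and C content was 57.4% in the members' windows, 59.6% in those of tested genes and 52.0% in all. Of the genes higher in dorsal diencephalon that have a window, CCGGAA was in Gar1 and in neither Ubtf nor Utp20. Tcof1, Npm1, Fbl, Rrp12 and Bop1 were the members without a window.

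In the bulk libraries 5 of the 43 members were higher in dorsal diencephalon and none was higher in ventral diencephalon. These were Ubtf and Tcof1 of RNA polymerase I transcription, Fbl of the box C/D snoRNPs, Gar1 of the box H/ACA snoRNPs and Utp20 of small subunit assembly, with fold changes between 1.67 and 2.66. The threshold was an adjusted p of 0.05 in edgeR's quasi-likelihood test with Benjamini-Hochberg adjustment over all 14701 genes tested. The 5 make up 11.6% of the members, beside 7.14% of all genes for that direction and 9.54% for higher levels in ventral diencephalon. At an unadjusted p under 0.05 the members higher in dorsal libraries numbered 7 (16.3%, against 14.4% of all genes), with none higher in ventral (against 16.2% of all genes). The median log2 fold change of the members was 0.14, with 30 above 0 and 13 below, against 0.0062 over all genes. For 10 members every dorsal library exceeded every ventral library (23.3%, against 19.0% of all genes), and for 1 member every dorsal library was below (2.33%, against 20.0% of all genes).

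**Figure D1:**
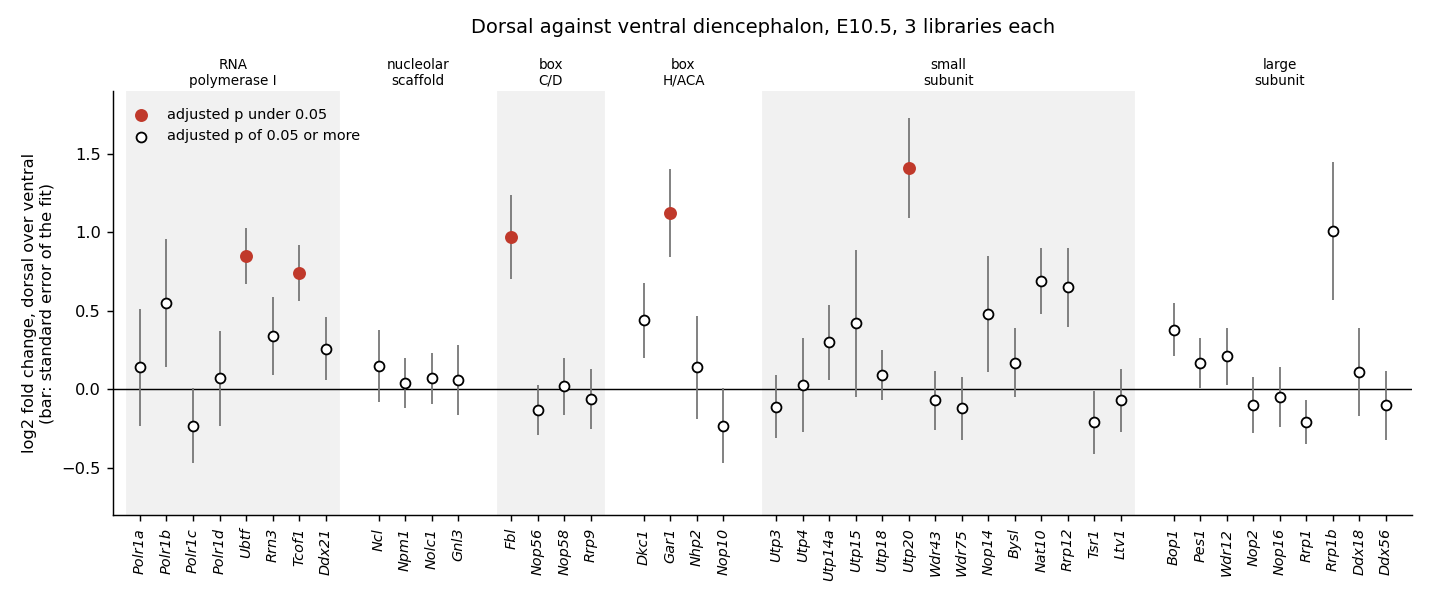
Log2 fold change of each of the 43 members, dorsal over ventral diencephalon, grouped by role; points are edgeR estimates, bars their standard errors, and filled points have an adjusted p under 0.05. The 5 filled points (Ubtf, Tcof1, Fbl, Gar1, Utp20) lie between 0.74 and 1.41, while the nucleolar scaffold genes lie between 0.04 and 0.15.

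RNA polymerase I transcription genes had a median log2 fold change of 0.30, and 2 of the 8 rose in dorsal diencephalon. Ubtf encodes the upstream binding factor, which binds along the ribosomal DNA and keeps it open for the polymerase (ENSMUSG00000020923; GRCm38 chromosome 11, 102304560 to 102319742, minus strand). Its dorsal libraries held 135, 127 and 178 CPM, against 82.2, 80.8 and 80.7 CPM in the ventral libraries. The ventral values were nearly equal and every dorsal value was above them, giving a log2 fold change of 0.85 ± 0.18 (SE; edgeR adjusted p = 0.0152). Tcof1 encodes treacle, a nucleolar protein that supports ribosomal DNA transcription and is mutated in Treacher Collins syndrome (chromosome 18, 60813755 to 60848971, minus strand). It had 49.7, 54.6 and 48.0 CPM in dorsal libraries, against 33.6, 30.9 and 26.9 CPM in ventral libraries. Again the regions did not overlap (log2 fold change 0.74 ± 0.18, edgeR adjusted p = 0.0294).

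The polymerase subunits themselves did not pass the test. Polr1a, the largest catalytic subunit, had a log2 fold change of 0.14 ± 0.37, and Polr1b, the other large catalytic subunit, 0.55 ± 0.41. Polr1c and Polr1d, which RNA polymerase I shares with RNA polymerase III, had −0.23 ± 0.24 and 0.07 ± 0.30. Rrn3, the initiation factor that brings the polymerase to its promoter, had 0.34 ± 0.25, and Ddx21, a helicase that couples transcription with processing, 0.26 ± 0.20. All 6 of these genes had overlapping regions. Polr1d read 58.6, 64.5 and 102.9 CPM in dorsal libraries, against 80.4, 87.1 and 48.1 CPM in ventral libraries. Library 3 was thus the highest of the dorsal libraries and the lowest of the ventral ones for this subunit.

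The nucleolar scaffold genes were nearly level between the regions. Npm1 encodes nucleophosmin, the histone and ribosome chaperone of the granular nucleolus, and Ncl encodes nucleolin, which binds precursor RNA. Npm1 had 436, 425 and 564 CPM in dorsal libraries, against 449.7, 478 and 454 CPM in ventral libraries. Ncl had 321, 336 and 483 CPM in dorsal libraries, against 387, 379.7 and 262 CPM in ventral libraries. For both genes the highest dorsal value came from library 3 and the regions overlapped (log2 fold changes 0.04 ± 0.16 and 0.15 ± 0.23, edgeR adjusted p = 0.882 and 0.706). Nolc1, a snoRNP chaperone, and Gnl3, the nucleolar GTPase nucleostemin, lay at 0.07 ± 0.16 and 0.06 ± 0.22.

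Among box C/D proteins, which form the methylation snoRNPs, 1 of 4 rose in dorsal diencephalon. Fbl encodes fibrillarin, the methyltransferase of the complex (chromosome 7, 28169710 to 28179269, plus strand). Its values were 77.3, 83.3 and 147.5 CPM in dorsal libraries, against 48.0, 54.8 and 54.8 CPM in ventral libraries. Dorsal library 3 was far above the others, yet each dorsal library exceeded each ventral one (log2 fold change 0.97 ± 0.27, edgeR adjusted p = 0.0435). Without library 3 of each region it was 0.63 ± 0.11. Nop56, a core protein that holds fibrillarin on the guide RNA, had 201, 203 and 239 CPM in dorsal libraries, against 217, 223 and 265 CPM in ventral libraries. Its regions overlapped, with a log2 fold change of −0.13 ± 0.16. Nop58, the partner of Nop56, and Rrp9, a protein of the U3 snoRNP, had 0.02 ± 0.18 and −0.06 ± 0.19.

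Box H/ACA proteins, which carry out pseudouridylation and also belong to telomerase, likewise had 1 of 4 members higher in dorsal diencephalon. Gar1 (chromosome 3, 129824912 to 129831396, minus strand) encodes the protein that loads and releases RNA substrates. It had 27.7, 28.5 and 36.4 CPM in dorsal libraries, against 10.2, 13.4 and 18.9 CPM in ventral libraries. Every dorsal value was well above every ventral one, and the level was 2.18-fold higher (log2 fold change 1.12 ± 0.28, edgeR adjusted p = 0.0316). Dkc1, the pseudouridine synthase dyskerin, had 78.2, 70.2 and 67.1 CPM in dorsal libraries, against 59.1, 63.6 and 36 CPM in ventral libraries. It did not overlap either, but it did not pass the test (0.44 ± 0.24, edgeR adjusted p = 0.255). Nop10 and Nhp2, small proteins of the core, overlapped between the regions: Nop10 had 102, 110.4 and 175 CPM in dorsal libraries, against 157, 168 and 129 CPM in ventral libraries.

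Small subunit factors had 1 of 14 members past the threshold and a median log2 fold change of 0.13. Utp20, a very large scaffold protein of the small subunit processome, showed the widest difference of all 43 members (chromosome 10, 88746607 to 88826804, minus strand). It held 16.1, 16.6 and 14.3 CPM in dorsal libraries, against 6.07, 7.35 and 4.28 CPM in ventral libraries. Its lowest dorsal library was far above its highest ventral one, and the fold change was 2.66 (log2 1.41 ± 0.32, edgeR adjusted p = 0.0200). Nat10, the acetyltransferase of the small subunit RNA, had 29.5, 33.3 and 31.8 CPM in dorsal libraries, against 21, 21.4 and 16.5 CPM in ventral libraries. The regions did not overlap, but Nat10 missed the threshold (0.69 ± 0.21, edgeR adjusted p = 0.0611). Rrp12, an assembly and export factor, was in the same position (0.65 ± 0.25, edgeR adjusted p = 0.121). Wdr43, a subunit of the first complex to bind the growing precursor, had 88.2, 80.5 and 65.4 CPM in dorsal libraries, against 71.0, 79.2 and 96.0 CPM in ventral libraries, which overlapped. The other 10 factors (Utp3, Utp4, Utp14a, Utp15, Utp18, Wdr75, Nop14, Bysl, Tsr1 and Ltv1) had log2 fold changes between −0.21 and 0.48, all with overlapping regions.

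None of the 9 large subunit factors passed the threshold. Rrp1b, a nucleolar protein that also binds chromatin, had 35.6, 32.3 and 31.1 CPM in dorsal libraries, against 23.5, 19.5 and 6.17 CPM in ventral libraries. The separation was complete, but ventral library 3 was far below the others and the error was wide (1.01 ± 0.44, edgeR adjusted p = 0.166). Its paralogue Rrp1 had 339.5, 359.7 and 370.1 CPM in dorsal libraries, against 432, 425 and 379 CPM in ventral libraries. It was the 1 member whose dorsal values all lay below its ventral values, without passing the test (−0.21 ± 0.14, edgeR adjusted p = 0.351). The trimer of Bop1, Pes1 and Wdr12, which matures the large subunit RNA, had log2 fold changes of 0.38 ± 0.17, 0.17 ± 0.16 and 0.21 ± 0.18. Nop2, an RNA methyltransferase, Nop16, and the helicases Ddx18 and Ddx56 lay between −0.10 and 0.11.

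**Figure D2:**
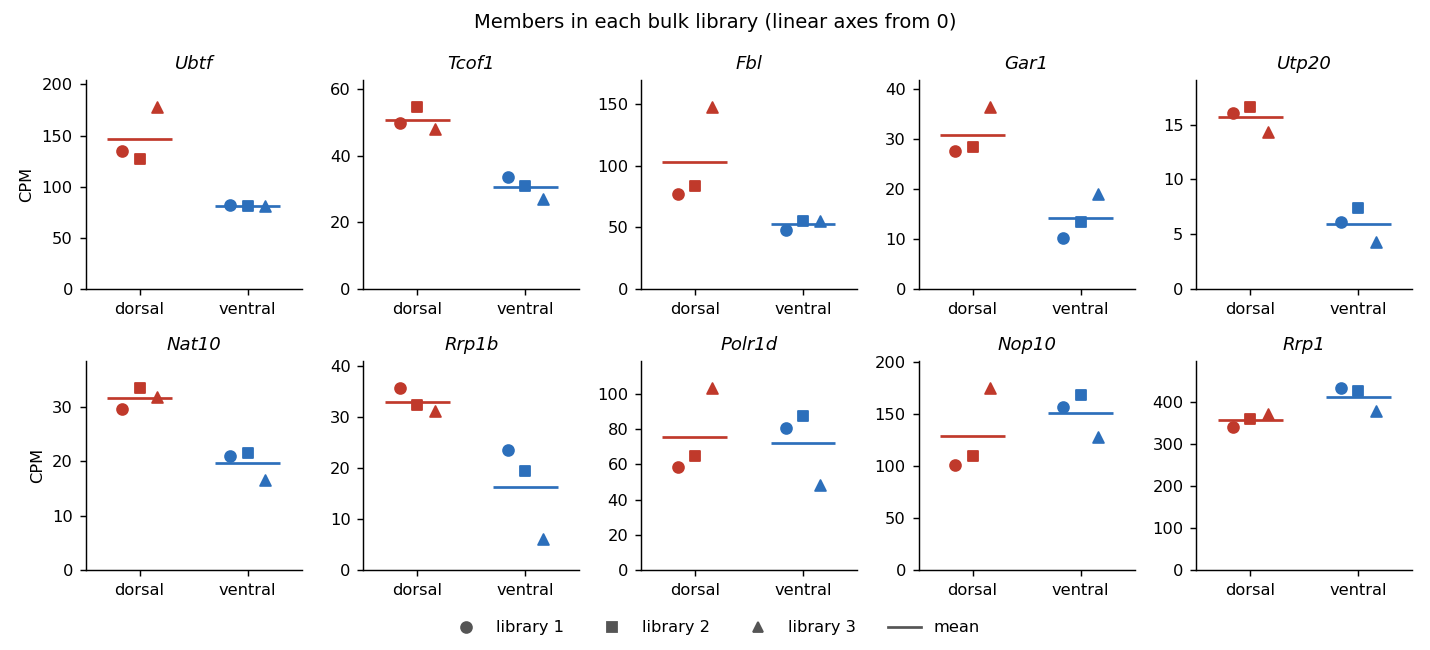
CPM of 10 members in each bulk library, dorsal left of ventral, on linear axes from 0; symbols give the library number and horizontal lines the mean of 3 libraries. Ubtf, Tcof1, Fbl, Gar1 and Utp20 do not overlap between regions, and in Polr1d and Nop10 library 3 lies on the opposite side from libraries 1 and 2.

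The count of members called depended on single libraries. It was 0 without dorsal library 1 or without ventral library 1, and 1 without dorsal library 2 (Ubtf) or without ventral library 2 (Utp20). The share of all genes higher in dorsal libraries was also lower there, between 3.38% and 4.12%, against 7.14% with all libraries. Without dorsal library 3 the count of members was 6 (9.68% of all genes). Without ventral library 3 it was 4 (1695 of 14685 genes). These fits keep 5 libraries, and the log2 fold changes of the 5 members called with all libraries stayed between 0.62 and 1.59 over every alternative run. Their edgeR adjusted p, or that of the alternative tool, ranged up to 0.0704 for Ubtf, 0.101 for Utp20, 0.107 for Gar1, 0.137 for Tcof1 and 0.152 for Fbl.

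With library 3 of both regions left out, an alternative added after seeing the data, 14 members rose in dorsal diencephalon (32.6%, against 26.4% of all genes) and 7 fell (16.3%, against 28.3% of all genes). All 5 members above were among the 14. The others were Polr1a, Polr1b, Rrn3, Utp15, Nat10, Rrp12, Bop1, Pes1 and Rrp1b, and the 7 that fell were Polr1c, Polr1d, Ncl, Nhp2, Nop10, Rrp1 and Ddx56. In that fit the subunits of 1 enzyme divided: the log2 fold changes of the large catalytic subunits were 0.77 ± 0.16 for Polr1a and 0.49 ± 0.14 for Polr1b, and those of the shared subunits −0.29 ± 0.11 for Polr1c and −0.46 ± 0.10 for Polr1d. The box H/ACA complex divided too, with 1.24 ± 0.18 for Gar1 against −0.45 ± 0.10 for Nhp2 and −0.63 ± 0.09 for Nop10. Libraries 1 and 2 were also the closest pair of each region, and whether they share a source was not tested.

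Transcript length moved with these differences. Spearman's correlation between the members' log2 fold change and the length of the longest coding transcript in GENCODE M21 was 0.44 over the 43 members and 0.30 over 13952 tested genes, given as a description since genes share their libraries. Among transcripts of up to 2326 bases the median log2 fold change was −0.05 for 17 members and −0.18 for all genes. From there to 4069 bases it was 0.17 for 15 members and −0.02 for all genes, and above that 0.42 for 11 members and 0.28 for all genes. Gar1 and Fbl, with coding transcripts of 1271 and 1197 bases, were short and higher in dorsal libraries, against that trend. What length has to do with the differences was not tested.

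Cell cycle genes also differed between the regions. In dorsal libraries 16 of 24 S phase genes and 21 of 24 genes of G2 and M phase were higher, and none of either list was higher in ventral libraries. S phase genes took 0.203% to 0.238% of the counts of dorsal libraries and 0.0985% to 0.11% of ventral libraries. The members' own sum was 3609, 3669 and 4169 CPM in dorsal libraries, against 3619, 3683 and 3318 CPM in ventral libraries, so that only library 3 separated the regions by this sum. Ventral libraries further held transcripts of adult small intestine (18 of 19 tested genes higher in ventral; 0.292% to 1.02% of counts, against 0.00131% to 0.00199% in dorsal libraries) and of exocrine pancreas (15 of 15 higher; 0.097% to 0.407% against 0.000666% to 0.000983%). The part of either in the members' differences was not tested, and in bulk tissue fewer cells of a type and less RNA per cell cannot be told apart.

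Of 171 other genes of ribosome biogenesis tested, 7 rose in dorsal diencephalon (4.09%, against 7.14% of all genes) and none rose in ventral diencephalon; the median log2 fold change was 0.08. Leaving out 1 library gave 1 to 8 higher in dorsal and 0 to 6 in ventral libraries. Over all genes the same fits gave 500 to 1695 higher in dorsal and 839 to 1928 in ventral libraries. Without library 3 of both regions 31 of 170 pathway genes rose and 30 fell. In that fit 26.4% of all genes rose and 28.3% fell, so the higher counts were not particular to the pathway. Baz2a, which silences copies of the ribosomal DNA, had 67.2, 50.4 and 57.6 CPM in dorsal libraries, against 28.4, 27.1 and 24.4 CPM in ventral libraries (log2 fold change 1.13 ± 0.19, edgeR adjusted p = 0.00602). Pop1, a subunit of RNase P and RNase MRP, had 15.8, 18.7 and 17.8 CPM in dorsal libraries, against 5.62, 8.33 and 6.56 CPM in ventral libraries (1.35 ± 0.29, edgeR adjusted p = 0.0157). Isg20l2, an exonuclease of ribosomal RNA maturation, and Mdn1, the giant ATPase of large subunit assembly, had log2 fold changes of 1.04 ± 0.22 and 1.02 ± 0.28. Gtf3c1, a subunit of a transcription factor of RNA polymerase III, had 1.05 ± 0.26. The remaining 2 were Pelp1, a scaffold of large subunit maturation, and Mycn. Mycn held 143, 144 and 113 CPM in dorsal libraries, against 58.2, 70.2 and 97.2 CPM in ventral libraries, without overlap (0.83 ± 0.23, edgeR adjusted p = 0.0435). Myc itself overlapped between the regions (−0.14 ± 0.23, edgeR adjusted p = 0.732).

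In the Smart-seq2 libraries TPM is scaled by transcript length, so levels were set side by side between genes. Whether transcript length still has a part in such levels and their ratios was not tested. Npm1 was the most abundant member, at 492 to 1294 TPM in null libraries with a median of 903, against 579.6 to 1309 TPM with a median of 1022 in wild-type libraries. Polr1a was the least abundant, at 0 to 22.8 TPM in null libraries (median 5.58), against 0.14 to 10.6 TPM in wild-type libraries (median 4.66). Between them the order of mean TPM over the 25 libraries ran from Nop56 (334.7), Nop58 (249), Rrp1 (229.9), Nop10 (220.1) and Nhp2 (216) down to Rrp12 (11.9) and Utp20 (6.25). The order differed between the genotypes. Nop10 averaged 259.6 TPM and Nop58 232 TPM in null libraries, against 177 TPM and 268 TPM in wild-type libraries, and Utp20 lay just below Polr1a in null libraries (6.83 and 6.95 TPM), against 5.62 and 4.29 TPM in wild-type libraries. The libraries of these neighbours overlapped widely. A median of 43 of the 43 members was detected at 1 TPM or more in both genotypes, with at least 37 in every null library and 38 in every wild-type library.

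Some subunits of a complex stood in 1 order in every library, and others did not. Polr1d exceeded Polr1a and Polr1b in 25 of 25 libraries, with mean TPM 22.9-fold and 9.71-fold higher, and Polr1c did so as well, at 20.6-fold and 8.77-fold. Polr1d and Polr1c were close to each other, with a ratio of means of 1.11 and Polr1d the higher in 14 of 25 libraries, and Polr1b exceeded Polr1a in 18 of 25. Among box C/D proteins Nop56 exceeded Fbl in 25 of 25 libraries (2.22-fold) and Nop58 in 19 of 25, and among box H/ACA proteins Nhp2 exceeded Gar1 in 25 of 25 (3.06-fold). Nop10 and Nhp2 had nearly equal means (ratio 1.02), with Nop10 the higher in 16 of 25. Npm1 exceeded Ncl 4.87-fold and Rrp1 exceeded Rrp1b 10.3-fold, each in 25 of 25 libraries. Of the large subunit trimer, Bop1 lay above Pes1 and above Wdr12 in 21 of 25 libraries each, and Wdr12 above Pes1 in 11 of 25.

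**Figure D3:**
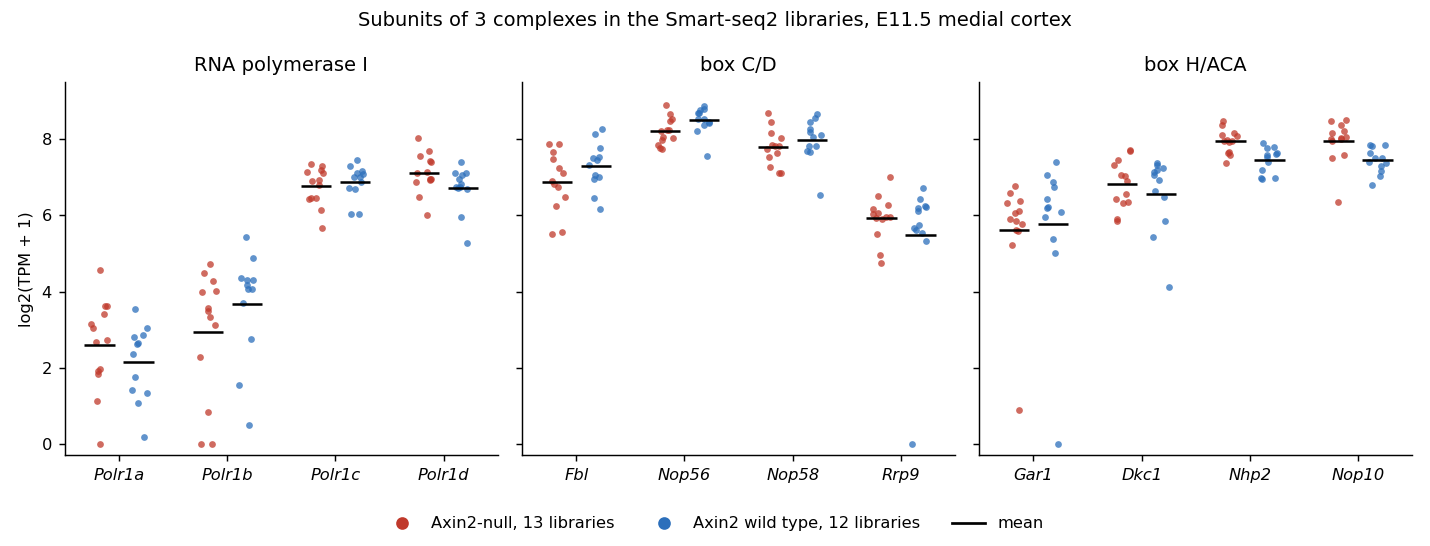
log2(TPM + 1) of the subunits of 3 complexes in each Smart-seq2 library, 13 Axin2-null libraries left of 12 wild-type libraries for each gene; black lines are means. Polr1c and Polr1d lie above Polr1a and Polr1b in every library, and Nhp2 and Nop10 have higher means in null than in wild-type libraries.

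Between genotypes most members differed by less than 2-fold. None of the 43 was more than 2-fold higher in Axin2-null libraries by the difference of mean log2(TPM + 1), against 1.39% of the 13680 genes averaging 1 TPM or more, and 1 was more than 2-fold lower (2.33%, against 8.14% of all genes). The median difference, null minus wild type, was −0.29 for the members, with 12 above 0 and 31 below, and −0.22 for all genes. With 1 sample per genotype these are descriptions of the libraries, and a fold on this scale understates that of low genes. The summed level of the members was 2664 to 4698 TPM in null libraries with a median of 3830.0, against 2853 to 4863 TPM with a median of 4431 in wild-type libraries.

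Utp18, a beta-propeller protein of the small subunit processome, was the member more than 2-fold lower (chromosome 11, 93859243 to 93885766, minus strand). It held 0.63 to 46.9 TPM in null libraries with a median of 25.9, against 18 to 83.0 TPM with a median of 46.7 in wild-type libraries. Of the null libraries 12 of 13 lay below the wild-type median, although the ranges overlapped (difference −1.14). Leaving out 1 null library brought it to −0.83. Within libraries of at least 9000 detected genes (9 null and 11 wild-type), an alternative added after seeing the data, it was −0.63. With medians in place of means it was −0.82. In these last 2 alternatives the 1 member more than 2-fold lower was Tsr1, and with log2(TPM + 5) there was none. Other small subunit factors with low differences were Tsr1, a late GTPase-like factor (−0.98), Wdr43 (−0.86) and Ltv1, a late assembly factor (−0.86). Tsr1 shares 32.32% of its exon bases with Srr on the opposite strand, and whether counting used strand is not given in the sources used here. Utp3 had 30.4 to 101.7 TPM in null libraries (median 43.8), against 15.2 to 103 TPM in wild-type libraries (median 57.7), a difference of −0.21. The median difference over the 14 small subunit factors was −0.42.

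Box H/ACA was the role whose median difference was above 0, at 0.37 over 4 genes. Nop10 held 81.1 to 362 TPM in null libraries with a median of 259, against 110.0 to 231 TPM with a median of 175 in wild-type libraries. Its level was above the wild-type median in 12 of 13 null libraries and above the highest wild-type library in 10 of them (difference 0.50). Nhp2 was alike, at 165 to 354 TPM in null libraries (median 246), against 124 to 240.1 TPM in wild-type libraries (median 187), with 12 of 13 null libraries above the wild-type median (difference 0.50). With any 1 library left out, the difference stayed between 0.44 and 0.63 for Nop10 and between 0.45 and 0.54 for Nhp2. Dkc1 and Gar1 had differences of 0.25 and −0.16. With 1 library left out that of Dkc1 went down to 0.03, and that of Gar1 changed sign (range −0.69 to 0.23).

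Among the polymerase genes Polr1d was higher in null libraries, at 63.3 to 262 TPM (median 138), against 37.9 to 168 TPM (median 110.1) in wild-type libraries, a difference of 0.40 with 11 of 13 null libraries above the wild-type median. Polr1b was lower, at 0 to 25.3 TPM (median 10.2) in null libraries, against 0.42 to 42.5 TPM (median 16.4) in wild-type libraries, a difference of −0.74 with 10 of 13 below. For Polr1b it was −0.46 on log2(TPM + 5) and −0.28 among libraries of at least 9000 detected genes. Within columns G1 to G7 and R1 to R7, the first runs of the table, it was −1.08 for Polr1b and 0.53 for Polr1d, and within the other columns −0.38 and 0.19. What the runs stand for is not given. Both ranges overlapped between the genotypes. Polr1a had a difference of 0.45, Polr1c −0.11, Ubtf −0.44, Rrn3 −0.38, Tcof1 −0.18 and Ddx21 −0.71.

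All 4 nucleolar scaffold genes had differences below 0. Ncl held 91.3 to 253 TPM in null libraries with a median of 144, against 147 to 393 TPM with a median of 238 in wild-type libraries. Of the null libraries 11 of 13 lay below the wild-type median and 7 below the lowest wild-type library (difference −0.57, between −0.64 and −0.50 with any 1 library left out, but −0.31 among libraries of at least 9000 genes). Npm1, Nolc1 and Gnl3 had −0.14, −0.42 and −0.39. Among box C/D genes Nop56 held 212 to 475 TPM in null libraries (median 297), against 188 to 472 TPM in wild-type libraries (median 371), a difference of −0.29, while Fbl had −0.41 and Nop58 −0.20. Rrp9 was at 26 to 127 TPM in null libraries (median 61.5), against 0 to 104 TPM in wild-type libraries (median 60.6). Its difference of 0.44 rested on 1 wild-type library listed at 0, and was −0.06 without it.

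Large subunit factors had a median difference of −0.22. Pes1, the scaffold of the trimer, held 0.37 to 64.8 TPM in null libraries with a median of 26.3, against 1.01 to 94.9 TPM with a median of 47.8 in wild-type libraries, a difference of −0.67 that ran from −1.06 to −0.32 with 1 library left out. It was −0.04 within columns G1 to G7 and R1 to R7 and −1.49 within the others. The wild-type library at 1.01 TPM (R1) was in the first of these runs and the null library at 0.37 TPM (G10) in the other. Each weighs on the mean of its run, so the runs cannot be compared without these libraries in mind. Rrp1, the most abundant of this group, held 106 to 328 TPM in null libraries (median 221), against 138 to 419 TPM in wild-type libraries (median 250.1), a difference of −0.22. Both genes overlapped between the genotypes. Ddx56 had the highest difference of all members, 0.67, but 0.32 without 1 wild-type library. The others lay between −0.51 (Nop2) and 0.06 (Nop16).

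**Figure D4:**
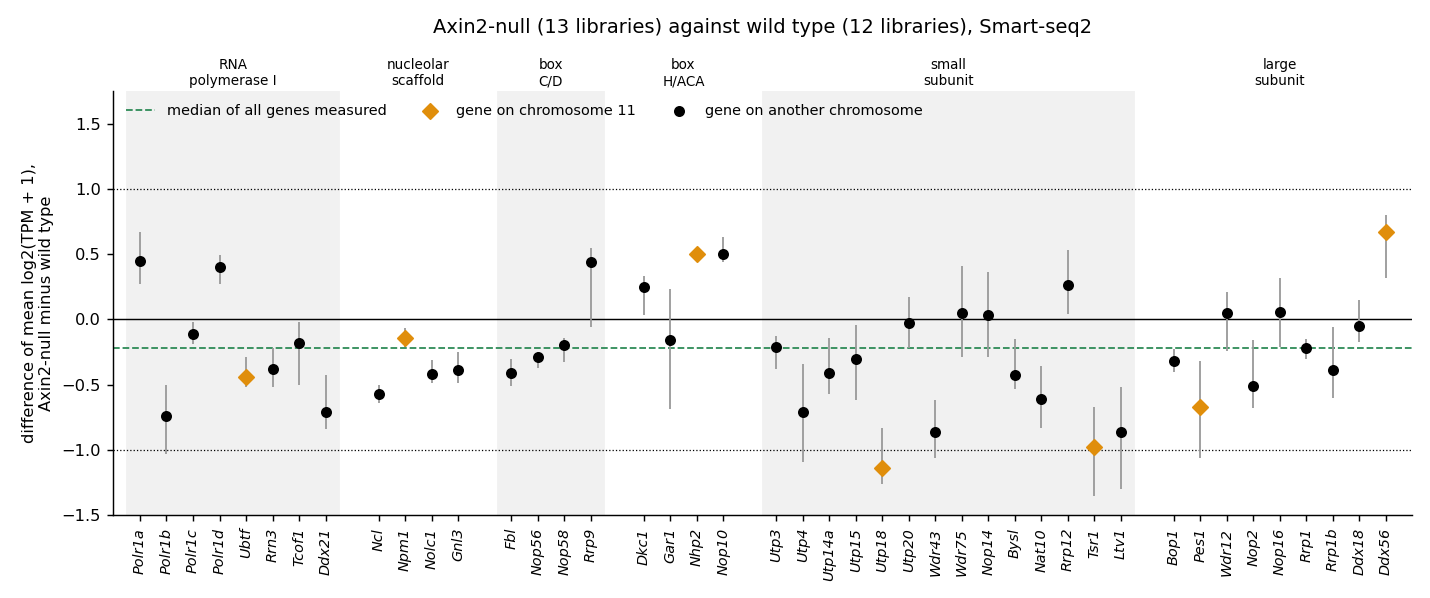
Difference of mean log2(TPM + 1), Axin2-null minus wild type, for each member by role; grey lines give the range with 1 of the 25 libraries left out, the dashed line the median of all genes (−0.22) and dotted lines a 2-fold difference. Diamonds mark the 7 members on chromosome 11, among them the lowest (Utp18) and the highest (Ddx56).

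Because MADM-11 makes chromosome 11 the recombined chromosome, its members were set apart. The 7 (Npm1, Nhp2, Ubtf, Utp18, Pes1, Ddx56 and Tsr1) had a median difference of −0.44 and a median absolute difference of 0.67, against −0.26 and 0.38 for the 36 members on other chromosomes. Over all genes measured the values were −0.19 and 0.41 for 1044 genes on chromosome 11 and −0.23 and 0.39 for 12636 genes elsewhere. Over the whole chromosome the median absolute difference was thus close to that elsewhere, and no test was made.

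Library measures were set beside the members' level. Spearman's correlation between the summed TPM of members and of S phase genes was 0.80 over 25 libraries, 0.69 within 13 null libraries and 0.64 within 12 wild-type libraries; both sums share the library and its composition, and the values are descriptions. S phase genes summed to 1361 to 3393 TPM in null libraries (median 2684), against 1628 to 3859 TPM in wild-type libraries (median 3312). The same correlation over 25 libraries was 0.44 for the number of genes detected (−0.10 within null and 0.69 within wild-type libraries), −0.01 for mitochondrial, −0.07 for ribosomal protein and −0.42 for red blood cell transcripts. The members' mean log2(TPM + 1), the scale of the differences above, correlated more with the number of genes detected. That correlation was 0.78 over 25 libraries, 0.81 within null and 0.83 within wild-type libraries. With S phase genes it was 0.71, 0.46 and 0.59. Genes detected numbered 7863 to 11850 in null libraries, against 8693 to 12210 in wild-type libraries. At least 9000 genes were detected in 9 of 13 null libraries and 11 of 12 wild-type libraries. Median mitochondrial transcripts were 18390 TPM in null libraries and 34020 TPM in wild-type libraries, and median ribosomal protein transcripts 129900 TPM in null libraries and 100500 TPM in wild-type libraries. Red blood cell genes summed to 2743 to 51720 TPM in null libraries and 1263 to 32450 TPM in wild-type libraries. Their part in the differences was not tested.

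Length again moved with the differences, with the opposite sign to the regions. Spearman's correlation between a member's difference and its coding transcript length was −0.28 over 43 members and −0.30 over 11836 genes. Nop10, Nhp2 and Polr1d, with transcripts of 1109, 1042 and 1196 bases, were among the shortest members and had higher means in null libraries. In the same 3 length classes, short to long, the median difference was −0.14 for members and −0.01 for all genes, then −0.43 and −0.30, then −0.20 and −0.40. The part of length was not tested here either.

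**Figure D5:**
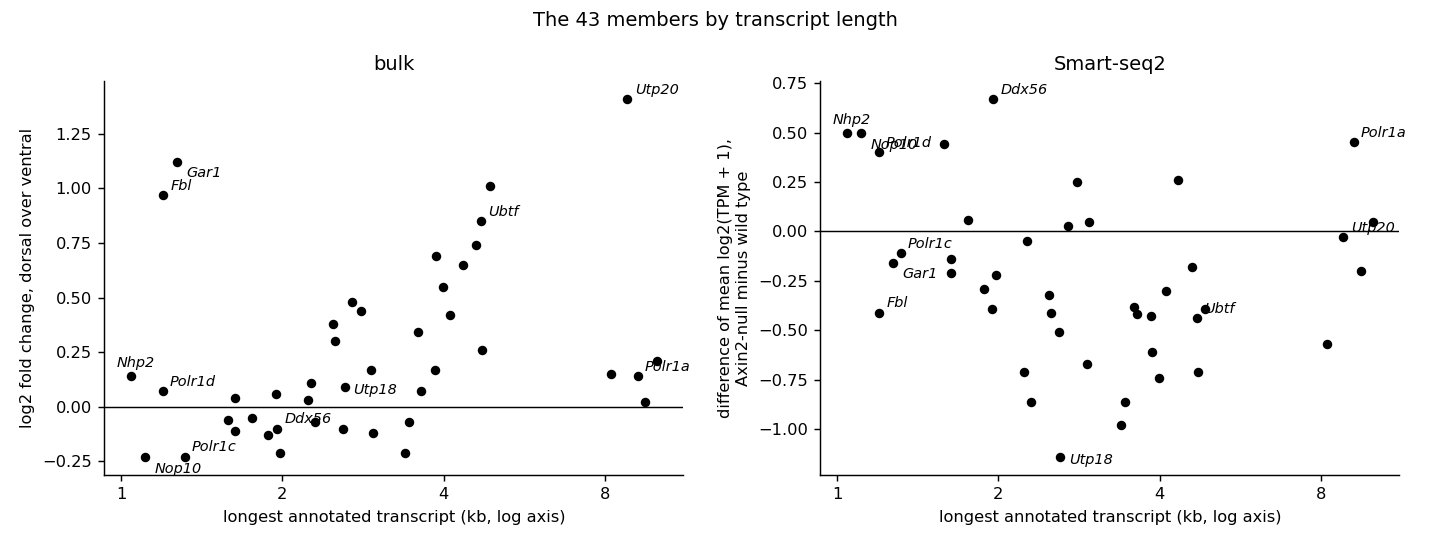
Log2 fold change of the 43 members, dorsal over ventral diencephalon (left), and their Smart-seq2 difference, Axin2-null minus wild type (right), against the length of the longest coding transcript in kilobases on a log axis. Spearman's correlation was 0.44 on the left and −0.28 on the right.

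Of 170 other ribosome biogenesis genes measured by Smart-seq2, 2 (Npm3 and Rpp38) were more than 2-fold higher in null libraries, where 1.39% of all genes were. Another 12 were more than 2-fold lower (7.06%, against 8.14% of all genes). The median difference of the 170 genes was −0.09. For Rpp38 the medians ran the other way, 18.5 TPM in null and 19.7 TPM in wild-type libraries, with 8 of 13 null libraries below the wild-type median and 1 at 228 TPM. The lowest was Taf1a, a subunit of the RNA polymerase I promoter selectivity factor, at 0 to 49.8 TPM in null libraries (median 16.2), against 4.09 to 49.8 TPM in wild-type libraries (median 23.5), with 4 of 13 null libraries listed at 0. Taf1b of the same factor had a difference of −1.13. Mycn held 6.71 to 143 TPM in null libraries (median 59.9), against 47.6 to 124 TPM in wild-type libraries (median 92.9), a difference of −0.55, and Myc had 0.42. For Myc the mean and the median differed in sign, since its median was 11.3 TPM in null libraries, against 13.9 TPM in wild-type libraries.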

How the data were processed

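The submitters' processing notes name Trimmomatic, STAR 2.7.0a and featureCounts and the builds mm10 and GRCm38, without a stated role or order. The authors deposited a bulk table named for TPM whose values are estimated counts, since its columns sum to the 17604166 to 20838002 counts given above rather than to 1000000. They were rounded, scaled by TMM and tested with edgeR 4.0.16 (quasi-likelihood F test, R 4.3.3) over 14701 genes averaging 1 CPM or more, with Benjamini-Hochberg adjustment. The deposited Smart-seq2 table holds TPM per gene, which keep no depth, so the depth of those libraries is unknown; 13680 genes averaging 1 TPM or more were compared on log2(TPM + 1), with no test. Both tables had 0 unused columns. Alternatives used DESeq2 1.42.0, limma 3.58.1, pandas 2.3.3 and scipy 1.17.1, and the edgeR steps were tested on simulated data.

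Smart-seq2 columns carry a colour letter for the genotype but could not be tied to numbered samples. The deviations of same-numbered bulk libraries were not correlated above 0.1 in every pair, so their numbers were not treated as pairs. Members and lists were chosen with earlier results of these data known. Values per library were given for members with an adjusted p under 0.05 in bulk (at least the 6 with the smallest p), for each role's most abundant and most different member, and for up to 5 other pathway genes; the other genes were named after their values were seen. Coordinates and lengths are those of GENCODE M21 on GRCm38, and promoter sequences those of RefSeq on GRCm38.p6, 1 window per gene. Reads of snoRNAs inside Ncl, Gnl3, Nop56 and Nop58 cannot be told apart from the members' own. The same may hold for genes on the opposite strand, since whether counting used strand is not given.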

Additional observations from a re-analysis of the deposited data

How the results depend on the processing

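Members higher in dorsal diencephalon numbered 6 with DESeq2, 5 with DESeq2 size factors or limma on log2(CPM + 1), and 4 without a filter or with a mean of at least 5 CPM, against 5 in the reported fit. Of all 14701 genes, 1542 were higher in dorsal diencephalon with DESeq2, against 1050 (7.14%) in the reported fit. The share of all genes was 6.9% with DESeq2 size factors, 8.46% with limma, 4.21% without a filter and 8.33% at 5 CPM. Leaving out 1 library gave 0 to 6 members higher in dorsal diencephalon and 0 with ventral values higher. For the other pathway genes the counts were 1 to 8 for dorsal and 0 to 6 for ventral. Over all genes they were 500 to 1695 for dorsal and 839 to 1928 for ventral. The median log2 fold change of the members was 0.04 to 0.17. Pathway genes higher in ventral numbered 2 with DESeq2 (13.7% of all genes), 1 with its size factors (9.71%), 2 at 5 CPM (8.92%) and 1 with limma (10.1%). The reported fit had 0 (9.54%).

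Same-numbered libraries of the 2 regions had correlated deviations of 0.099, 0.148 and 0.165, so the numbers were not taken as pairs. With the replicate block, 4 members (Fbl no longer among them, edgeR adjusted p = 0.0573) and 2 pathway genes were higher in dorsal diencephalon, where 6.29% of all genes were. Without library 3 of both regions, 14 members rose in dorsal libraries and 7 fell, and 31 of 170 pathway genes rose and 30 fell. Of all genes 26.4% rose and 28.3% fell in that fit. Ncl turned to −0.23 (edgeR adjusted p = 0.0298). The cause of these changes was not tested.

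In Smart-seq2, members more than 2-fold lower in null numbered 5 with log2(TPM + 0.1), where 22.2% of all genes were, and 0 with log2(TPM + 5), where 1.07% were. Within columns G1 to G7 and R1 to R7 there were 6 lower (11% of all genes) and 1 higher (846 of 13680 genes). Within the other columns there were 6 lower (20.9%) and 0 higher (412 of 13680 genes). The median difference of the members stayed between −0.33 and −0.16 in every Smart-seq2 alternative.

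The 3 libraries per region limit the precision of the bulk values. Smart-seq2 values of low genes such as Polr1a and Utp20 included libraries at 0, where absence and shallow sequencing cannot be told apart.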
